A study of Mus musculus with 18 samples.

Results

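The Smad family and its co-repressors Ski and Skil were described in mouse NIH/3T3 fibroblasts with and without a working *Xpo4* gene. The 9 genes (Smad1, Smad2, Smad3, Smad4, Smad5, Smad6, Smad7, Ski and Skil) were taken by name from the 55401 genes counted in the mRNA libraries, because Smad3 protein is a known cargo of exportin 4 (XPO4), the nuclear export receptor under study. All 9 passed the filter on low counts, which 14688 genes passed in all. Only RNA was measured, so the location of Smad proteins in the cell was not addressed.

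NIH/3T3 is an immortalised mouse embryonic fibroblast line. WT cells were unedited, and KO cells were an XPO4 knockout line made with CRISPR-Cas9, carrying a frameshift deletion in the first exon of *Xpo4*. Each genotype had 3 mRNA libraries, and 2 circRNA libraries each of whole cells, cytoplasm and nucleus, which were treated with RNase R to remove linear RNA. The labels and methods describe a single knockout line, so the knockout and any other difference between that line and WT cannot be told apart.

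Smad proteins carry signals of the TGF-β family from the membrane to the nucleus. Ligands such as TGF-β and activin lead their receptors to phosphorylate Smad2 and Smad3, and bone morphogenetic proteins (BMPs) lead theirs to phosphorylate Smad1 and Smad5. These receptor-regulated Smads join Smad4 and bind DNA together. Smad6 and Smad7 inhibit the receptors and are themselves induced by the signal, and Ski and Skil (also called SnoN) bind Smad complexes and recruit repressors. In fibroblasts the pathway is known for its control of matrix genes.

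Libraries held 16974062 to 22057323 counts in genes for mRNA, 50341 to 58165 backsplice reads for whole-cell circRNA, 50629 to 81941 for cytoplasm and 2189 to 4383 for nucleus. All 8 fibroblast markers were expressed, with summed levels of 2636 to 2730 FPKM in WT against 2741 to 2829 in KO, and 5 were called higher and 2 lower in KO. Among all tested genes, 25.1% were called higher and 23.6% lower in KO. Summed blood cell markers reached 4.39 to 6.10 FPKM in WT against 3.01 to 4.16 in KO, with 2 of the 6 at 0 in every library and 2 (Ptprc and Cd68) called lower in KO, while Hba-a1 had 0 counts in each WT library and 8, 7 and 6 in KO. *Xpo4* mRNA had counts of 657, 614 and 685 in WT against 712, 504 and 687 in KO, with a log2 fold change of 0.18 ± 0.11 (SE, n = 3 per genotype, edgeR adjusted p = 0.193). Without KO replicate 2 it was 0.34 and called higher (edgeR adjusted p = 0.000252). A deletion inside 1 exon need not lower the count of a gene, so this does not check the labels. The column heading inside each mRNA file names the other genotype. Sample titles were followed here, and if the headings were right every mRNA direction below would be reversed. Of 6 Y-linked genes with at least 100 counts over the libraries, 5 were at 0 in all WT libraries and had at least 34 counts in each KO library. The part of these differences in the results below was not tested. KO replicate 2 differed from its group by gene length, with a median deviation of 0.09 on the log2 scale in the shortest of 5 length classes of genes and -0.10 in the longest, and values without it are given where they changed the call of a gene named below.

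In both genotypes the co-repressor Ski and the common partner Smad4 were the most abundant of the 9 mRNAs, and Skil was the least. Levels are in FPKM (fragments per kilobase of gene, scaled by the total count of the library), computed from the counts and gene lengths. The length of a gene is the union of its annotated exons. Which transcripts were made was not measured, so the order between genes depends on these lengths. In WT the mean FPKM (n = 3) was 44.8 ± 1.2 (SD) for Ski, 28.1 ± 0.55 for Smad4, 18.4 ± 0.81 for Smad3, 17.0 ± 0.39 for Smad6, 14.2 ± 0.96 for Smad7, 14.02 ± 0.27 for Smad5, 9.14 ± 0.47 for Smad1, 7.44 ± 0.24 for Smad2 and 1.08 ± 0.15 for Skil. The order was the same in KO. Smad7 and Smad5 were neighbours whose library ranges overlapped in both genotypes, and the ranges of the other neighbours did not overlap. Among tested genes, Ski stood at the 92.5 percentile of FPKM in WT and Skil at the 19.1 percentile.

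**Figure D1:**
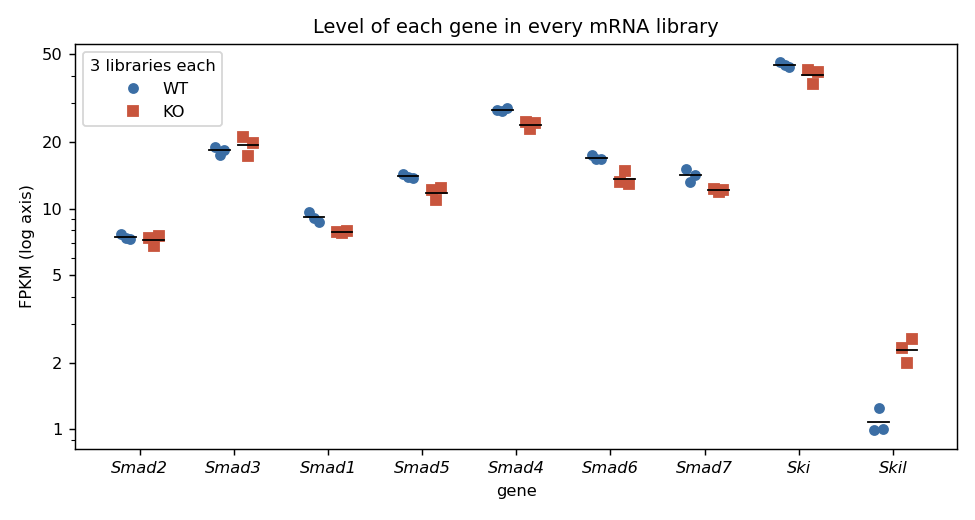
FPKM of each gene (log axis) in the 3 WT libraries (circles) and the 3 KO libraries (squares), with the mean of each group as a bar. Skil lies at 0.991 to 1.25 in WT against 1.997 to 2.56 in KO, and the groups of Smad2 and Smad3 overlap.

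Of the 9 genes, 7 differed between genotypes, against a background in which 48.7% of all tested genes were called at an adjusted p under 0.05. A group of 6 (Smad1, Smad5, Smad4, Smad6, Smad7 and Ski) fell by 10.3% to 19.5%, where 23.6% of all tested genes were called lower. Skil rose 2.12-fold, where 25.1% were called higher. In FPKM the groups of these 7 genes did not overlap, as was so for 57.8% of all tested genes (28.5% with all KO libraries below WT and 29.3% with all above). The median log2 fold change was -0.23 over the 9 genes and -0.0029 over all tested genes, and the median size of a change was 0.28 over all tested genes and 0.46 over called genes. The 6 decreases were therefore smaller than the typical called change, and 3.85% of tested genes had a larger rise than Skil.

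Smad3, which with Smad2 transmits TGF-β and activin signals, did not pass the test. It lies at chr9:63646767-63757994 on the minus strand (GRCm38). Its FPKM was 19.1, 17.5 and 18.5 in WT against 21.2, 17.4 and 19.8 in KO. KO replicate 2 was the lowest of all 6 libraries and KO replicates 1 and 3 were the highest, so the groups overlapped. The log2 fold change was 0.08 ± 0.07 (SE, n = 3, edgeR adjusted p = 0.361), with a 95% interval of -0.07 to 0.23, or 0.952 to 1.18 fold. Without KO replicate 2 the change was 0.16 and was called higher (edgeR adjusted p = 0.0197). This was the only 1 of 14 settings in which Smad3 was called.

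Smad2, the other mediator of TGF-β and activin signals, did not pass the test under any of the 14 settings. Its FPKM was 7.71, 7.34 and 7.26 in WT against 7.37, 6.81 and 7.51 in KO. The libraries of both genotypes were interleaved. The log2 fold change was -0.04 ± 0.06 (SE, n = 3, edgeR adjusted p = 0.577). Its 95% interval of 0.888 to 1.06 fold excludes a change as large as those of Smad1 and Smad5 at their estimates.

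Smad1 and Smad5, which transmit BMP signals, both fell. The FPKM of Smad1 was 9.65, 9.03 and 8.73 in WT against 7.82, 7.73 and 7.89 in KO. All KO libraries lay below all WT libraries and close to each other. Its log2 fold change was -0.23 ± 0.06 (SE, n = 3, edgeR adjusted p = 0.00802). Smad5 had 14.3, 13.9 and 13.8 FPKM in WT against 12.1, 10.99 and 12.4 in KO. The groups again did not overlap, with KO replicate 2 the lowest. The change of Smad5 was -0.25 ± 0.06 (SE, n = 3, edgeR adjusted p = 0.00334). Both genes were called in all 14 settings.

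Within a library, the summed FPKM of Smad2 and Smad3 over that of Smad1 and Smad5 was 1.12, 1.08 and 1.14 in WT against 1.44, 1.29 and 1.35 in KO. The KO ratios were all above the WT ratios. This follows from the values above and was not tested on its own.

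Smad4, the shared partner of the receptor-regulated Smads, fell as well. Its FPKM was 27.9, 27.6 and 28.7 in WT against 24.6, 22.8 and 24.3 in KO. The groups did not overlap and KO replicate 2 was again the lowest library. The log2 fold change was -0.23 ± 0.05 (SE, n = 3, edgeR adjusted p = 0.00344), called in all 14 settings. The ratio of Smad3 to Smad4 FPKM was 0.685, 0.633 and 0.646 in WT against 0.862, 0.760 and 0.814 in KO.

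The inhibitory Smads fell, Smad6 the most of the 9 genes. Smad6, which mainly restrains BMP signals, had 17.4, 16.8 and 16.8 FPKM in WT against 13.2, 14.9 and 12.9 in KO. The groups did not overlap, and KO replicate 2 was the KO library nearest to WT. Its log2 fold change was -0.31 ± 0.07 (SE, n = 3, edgeR adjusted p = 0.00229), called in all 14 settings. Smad7, which restrains TGF-β as well as BMP receptors, had 15.2, 13.3 and 14.2 FPKM in WT against 12.3, 11.9 and 12.2 in KO. The KO libraries were tightly grouped and below all WT libraries. The change was -0.23 ± 0.06 (SE, n = 3, edgeR adjusted p = 0.00893). Without WT replicate 1, the highest library, it was -0.18 and was not called (edgeR adjusted p = 0.0543), and it was called in the other 13 of 14 settings, the reported fit included.

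The promoter of Smad6 is shown because it holds GTCTAGAC, the palindromic DNA element that Smad proteins bind. The element lies across the annotated start of the gene, with 4 bases before it and 4 from it on. It was found in 0.213% of 32851 promoters of 300 bases (RefSeq, GRCm38.p6), and the word equals its own reverse complement. No promoter was given for Smad2, Smad4, Smad7 or Skil, so those were not searched. Promoters were given for Smad1, Smad3, Smad5, Smad6 and Ski, and of these the word was in that of Smad6 alone. Of 2 other words searched on both strands, CAGACA (21.04% of all promoters) was in none of them, and GGCGCC (11.9%) was in 2 of the 3 promoters of Smad5 and in that of Ski. The stretch below covers 150 bases before and 10 bases from the start, at chr9:64022050-64022209 on the minus strand, with the element in capitals.
Smad6: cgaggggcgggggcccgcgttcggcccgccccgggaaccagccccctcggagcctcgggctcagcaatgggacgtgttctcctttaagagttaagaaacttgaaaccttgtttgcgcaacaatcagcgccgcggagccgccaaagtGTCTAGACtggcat
A match is a description of the letters, and binding was not measured here.

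The co-repressors moved in opposite directions. Ski had 46.0, 44.8 and 43.6 FPKM in WT against 42.3, 36.7 and 41.6 in KO. The groups did not overlap in FPKM, but WT replicate 3 and KO replicate 1 were close, and in TPM the groups overlapped. Its log2 fold change was -0.16 ± 0.06 (SE, n = 3, edgeR adjusted p = 0.0437). This was the weakest call of the 9 genes, and it held in 7 of 14 settings, with adjusted p-values from 0.0153 to 0.135. The call was lost without KO replicate 2 (-0.09, edgeR adjusted p = 0.106), without KO replicate 3 (0.0508) and without any single WT replicate (0.0766 to 0.135). With all libraries kept, it was also lost with no scaling factors (edgeR adjusted p = 0.0524) and with limma on log2(FPKM + 1) (limma adjusted p = 0.0670).

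Skil had 191, 237 and 214 counts in WT against 402, 347 and 422 in KO. Every KO library exceeded every WT library although WT libraries were deeper. In FPKM it had 0.991, 1.25 and 1.00 in WT against 2.33, 1.997 and 2.56 in KO. The log2 fold change was 1.09 ± 0.12 (SE, n = 3, edgeR adjusted p = 6.76e-06), with a 95% interval of 1.78 to 2.54 fold, and it was called in all 14 settings. The ratio of Ski to Skil FPKM was 46.4, 35.8 and 43.6 in WT against 18.2, 18.4 and 16.2 in KO. Ski remained far above Skil in all 6 libraries, while the ratio fell.

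**Figure D2:**
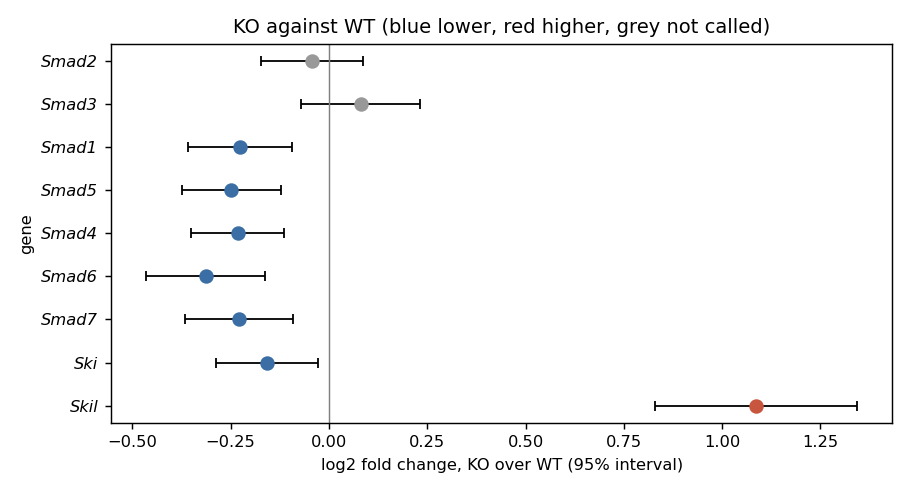
Log2 fold change of each gene, KO over WT, with its 95% interval. Skil is at 1.09, Smad2 and Smad3 have intervals that cross 0, and the other 6 genes lie between -0.31 and -0.16.

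The changes of these genes were compared with those of their surroundings. Skil lies on chromosome 3, where the median of 753 tested genes was 0.16, and 6 tested genes within 1 Mb of it had a median of 0.23, with 3 called higher and 0 lower. The medians of the chromosomes of the other 8 genes lay between -0.01 and 0.04. Of the 6 genes that fell, the neighbours of Smad1 (0.20), Smad7 (0.24) and Smad6 (0.10) had medians of the opposite sign, and those of Smad4 (-0.04), Ski (-0.02) and Smad5 (-0.02) had the same sign. The neighbours of Smad2 had the highest median, 0.31, with 6 of 10 called higher. Median changes by length class ran from -0.08 in the longest genes, which include Smad2, Smad5 and Skil, to 0.05. With the length trend of each library removed, the same 7 of 9 genes passed the test.

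**Figure D3:**
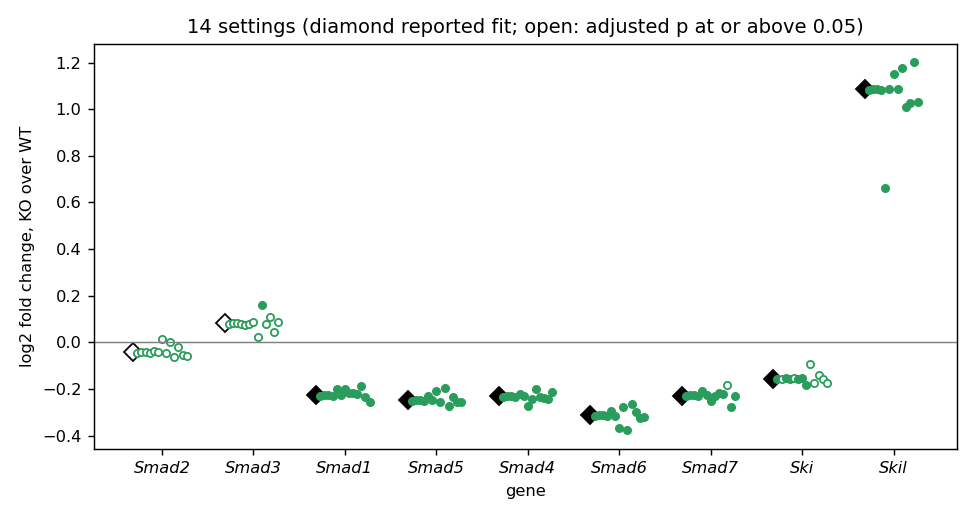
Log2 fold change of each gene, KO over WT, under 14 settings: the reported fit (diamonds) and 13 alternatives (circles), open where the adjusted p was 0.05 or more. Ski spans -0.18 to -0.09, Skil spans 0.66 to 1.201, and Smad3 has 1 filled circle at 0.16.

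Other genes of the pathway were taken from 8 lists of 99 genes. Of these, 84 were tested, 19 were called higher and 26 lower in KO, or 53.6% of those tested against 48.7% of all genes. Over all tested genes, 25.1% were called higher and 23.6% lower. By list, the shares of tested genes called were 60% for ligands, 66.7% for receptors, 37.5% for turnover and 50% for anchors. They were 16.7% for transport, 40% for partners, 84.6% for TGF-β targets and 83.3% for BMP targets. The lists hold 5 to 20 tested genes each. The median change of the 84 was -0.05. Without KO replicate 2, 22 were called higher and 27 lower, where 48.6% of all tested genes were called. The 5 tested genes on chromosome 10 were all called higher, on a chromosome where 455 of 689 tested genes (66.04%) were called higher and the median change was 0.45. Elsewhere 14 pathway genes were called higher and 26 lower, of 79.

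Among the ligands, 3 of 5 tested genes rose and 0 fell. Inhba, which encodes a subunit of activin, had 153, 170 and 205 counts in WT against 373, 296 and 317 in KO, with a log2 fold change of 1.12 ± 0.12 (SE, n = 3, edgeR adjusted p = 4.06e-06). Gdf11, an activin-like ligand on chromosome 10, changed by 1.17 and Tgfb3 by 0.23. The other 7 of the 12 ligands did not pass the filter. Of the BMP class, Bmp2, Bmp7 and Gdf6 had 0 counts in every library, Bmp4 and Bmp6 at most 3, and Gdf5 had 5 to 14. Inhbb, another activin subunit, had 0 counts in every library. The 2 remaining ligands, Tgfb1 (0.05) and Tgfb2 (0.14), did not pass the test.

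Of 12 tested receptor genes, 3 rose and 5 fell. Acvr2b and Acvr2a, the type II receptors of activin, changed by -0.997 and -0.42. Bambi, a decoy receptor that blocks the signal, had 62, 51 and 74 counts in WT against 105, 92 and 81 in KO, and changed by 0.79. Among the type I receptors, Tgfbr1 and Acvr1 rose by 0.36 and 0.34 and Acvr1b fell by 0.21 on the log2 scale, a call lost without KO replicate 2 (edgeR adjusted p = 0.066). Acvrl1 (-0.43) and Bmpr1a (0.06) did not pass the test.

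Of 16 genes for Smad turnover (ubiquitin ligases, deubiquitinases and phosphatases), 3 rose, 3 fell and 10 did not pass. The deubiquitinases Usp9x and Usp11 changed by -0.45 and -0.32, and Usp15, on chromosome 10, by 0.40. Of 6 genes that hold Smads at membranes or the nuclear envelope, 2 rose and 1 fell. Pmepa1, an inhibitor that sequesters receptor-regulated Smads, had 132, 155 and 193 counts in WT against 742, 836 and 736 in KO, a log2 fold change of 2.49 ± 0.10 (SE, n = 3, edgeR adjusted p = 5.12e-10). Lemd3, also on chromosome 10, rose by 0.33 and Strap, which assists Smad7, fell by 0.16 on the log2 scale. Of 6 transport genes only Kpnb1, importin beta, was called, at -0.16.

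Of 20 tested transcription partners and co-regulators, 0 rose and 8 fell, and the list's median change was -0.16. The 40% called lay below the 48.7% of all tested genes. Jun had 6153, 5774 and 6592 counts in WT against 3289, 3516 and 3002 in KO, a change of -0.70. Atf3, a partner of Smad3, changed by -1.19. Tgif2, a co-repressor with 23 to 64 counts, changed by -0.83. Smad9, the third BMP-responsive Smad, had a change of -0.16 that did not pass the test (edgeR adjusted p = 0.147).

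Of 13 tested TGF-β target genes, 4 rose and 7 fell, with a median of -0.22. Ccn2, a matricellular growth factor on chromosome 10, had 522, 545 and 617 counts in WT against 3138, 3582 and 3222 in KO, a log2 fold change of 2.78 ± 0.07 (SE, n = 3, edgeR adjusted p = 4.18e-12). Ltbp2 changed by -0.997 and Junb by -0.83.

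Of 6 tested BMP target genes, 4 rose and 1 fell, with a median of 0.46. Id2 and Id1, inhibitors of bHLH factors, changed by 0.94 and 0.68, and Id3 had a change of -0.05 that did not pass the test (edgeR adjusted p = 0.584). Without KO replicate 2 that of Id3 was -0.12 and called lower (edgeR adjusted p = 0.0405). Grem1, a secreted BMP antagonist, had 5, 6 and 8 counts in WT against 230, 197 and 199 in KO, a change of 5.23 ± 0.21 (SE, n = 3, edgeR adjusted p = 5.13e-10). Every KO library was far above every WT library. The 1 that fell, Hey1, had 27, 18 and 30 counts in WT against 1, 3 and 1 in KO, a change of -3.59.

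**Figure D4:**
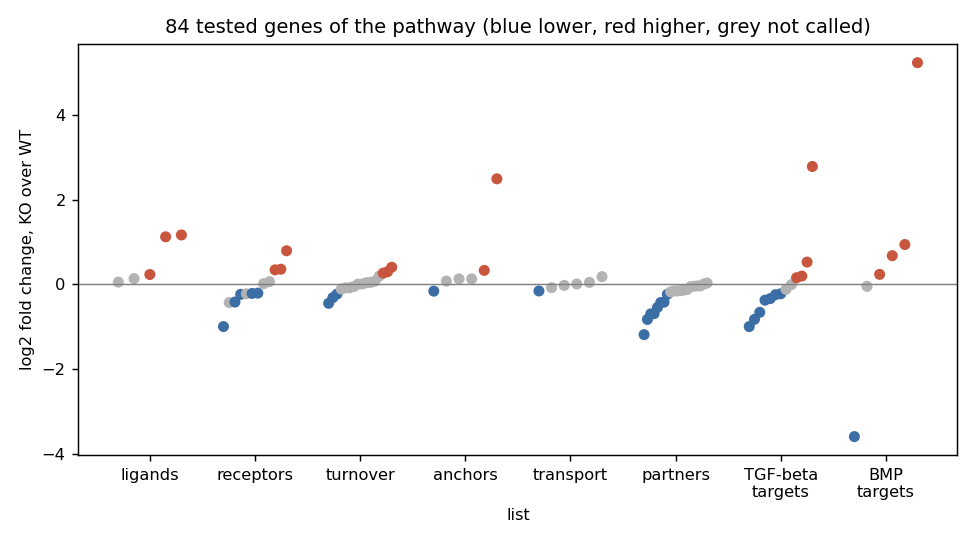
Log2 fold change, KO over WT, of the 84 tested pathway genes in 8 lists, with calls in colour. Grem1 (5.23), Ccn2 (2.78) and Pmepa1 (2.49) are the highest points, and no gene of the partner list is called higher.

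Circular RNAs form when the end of an exon is joined back to the start of the same exon or of an earlier one. Circles with both ends on annotated exon edges were found for 5 of the 9 genes: 6 for Smad1, 5 for Smad2, 2 for Smad3, 6 for Smad4 and 2 for Smad5. No such circle was found among those listed for Smad6, Smad7, Ski or Skil. Of the 21 circles, 11 had at least 10 reads in a library. The junctions of those from Smad1, Smad3 and Smad5 are shown, since the junction is what distinguishes each circle from its linear RNA. Each has the last 15 bases of the last exon in lower case and the first 15 of the first exon in capitals (GRCm38).
Smad1 exon 2 (chr8:79371784-79372364, minus): gagtggagagcccggGCGCTAACTGGGATC
Smad1 exons 3 to 6 (chr8:79343654-79356469, minus): atgagcttcgtgaagTTCTCCCGCCGGTGC
Smad1 exons 5 to 6 (chr8:79343654-79349812, minus): atgagcttcgtgaagATGTTCAGGCAGTTG
Smad3 exons 2 to 4 (chr9:63666148-63667922, minus): acagcatggacgcagGTCACTGGATGGTCG
Smad3 exons 2 to 5 (chr9:63663665-63667922, minus): cacacaataacttggGTCACTGGATGGTCG
Smad5 exons 2 to 6 (chr13:56723429-56736056, plus): atgagctttgtcaagGACTTGCACTAAGAA
All 6 are flanked by AG before and GT after the circle.

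The most abundant circle was exon 2 of Smad1, which has 581 bases, 400 of them coding. It had 54 and 73 reads in WT against 89 and 46 in KO whole cells, and 80 and 67 in WT against 40 and 133 in KO cytoplasm. KO replicates stood on both sides of WT in both fractions. It did not pass the test in whole cells (log2 fold change 0.12, edgeR adjusted p = 0.901) or cytoplasm (0.71, 0.448). In the nucleus it had 3 and 3 reads in WT against 2 and 13 in KO.

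The Smad3 circle of exons 2 to 4, 401 bases that are all coding, had 14 and 7 reads in WT against 19 and 5 in KO whole cells, and 15 and 27 in WT against 13 and 19 in KO cytoplasm. The groups overlapped in both fractions. It did not pass the test in whole cells (log2 fold change 0.22, edgeR adjusted p = 0.834) or the cytoplasm (0.16, edgeR adjusted p = 0.832). The WT cytoplasmic libraries were deeper, with 77818 and 81941 backsplice reads against 50629 and 63335 in KO. No circle of Smad3 was listed in the nucleus.

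In the cytoplasm 12 circles of the 5 genes were tested, and 2 were called higher and 3 lower in KO, where 53.5% of all tested circRNAs were called (30% higher and 23.5% lower). The Smad1 circle of exons 3 to 6 had 19 and 22 reads in WT against 0 and 0 in KO, so it was at least 9.75-fold lower against a floor of 3 reads over the group (edgeR adjusted p = 0.00016). Of the other 2 lower circles, that of Smad4 exons 2 to 10 had 13 and 13 reads in WT against 1 and 1 in KO. The Smad5 circle had 9 and 11 reads in WT against 1 and 3 in KO. The Smad4 circle with most reads, exons 2 to 5, had 54 and 26 in WT against 4 and 55 in KO. It was not called (log2 fold change -0.01, edgeR adjusted p = 0.992). Nor was that of Smad4 exons 9 to 10, with 8 and 12 in WT against 11 and 7 in KO (0.40, edgeR adjusted p = 0.499). The circles that were higher came from Smad2: exon 2 had 1 and 2 reads in WT against 10 and 6 in KO, and exons 2 to 6 had 3 and 8 in WT against 7 and 17 in KO. With DESeq2, which called 5.08% of all tested cytoplasmic circRNAs, only 1 of the 5, the Smad1 circle of exons 3 to 6, was called. Linear Smad2 mRNA did not pass the test.

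In whole cells 15 circles were tested and 0 were called by edgeR, as were 0% of all tested circRNAs. Of the 15, 4 had an unadjusted edgeR p under 0.05, beside 3405 of all 8903 tested circRNAs. DESeq2 called 0 of the 15, beside 0.09% of all. The Smad1 circle of exons 5 to 6 had 1 and 1 reads in WT against 10 and 12 in KO (edgeR adjusted p = 0.058). In the nucleus 2 circles were tested and 0 were called by edgeR, where 10.1% of all tested were. Of the 2, 0 had an unadjusted edgeR p under 0.05, beside 170 of all 651 tested. DESeq2 called 0, as it did of all tested nuclear circRNAs. Reads on circles of these genes numbered 4 to 15 per nuclear library.

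**Figure D5:**
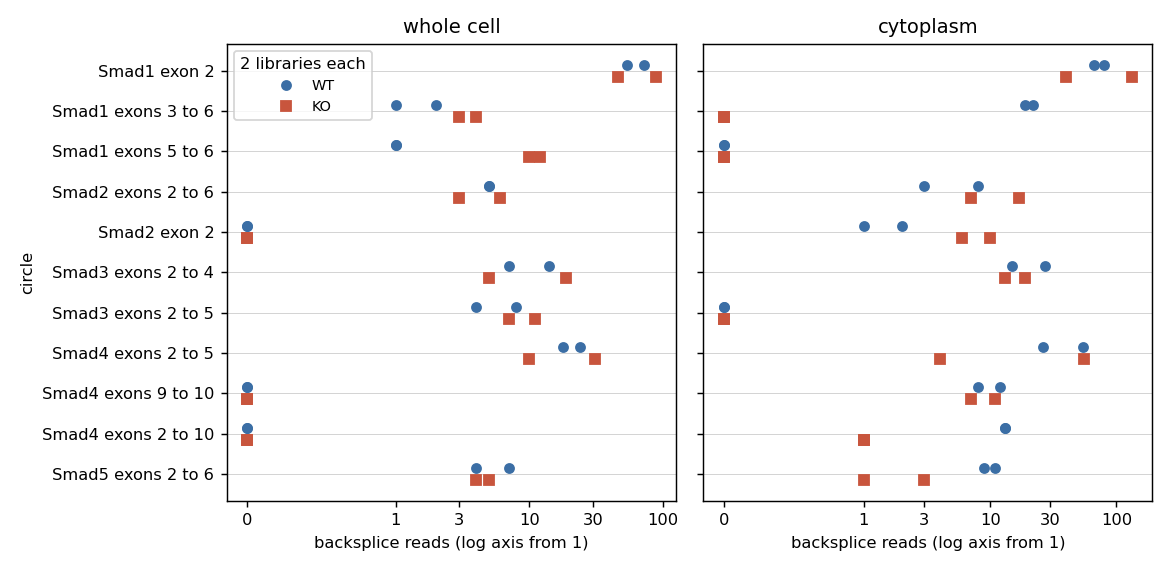
Backsplice reads (log axis from 1, with 0 shown) of the 11 circles with at least 10 reads in a library, in whole cells and cytoplasm, 2 libraries of each genotype. Points at 0 include circles not listed in a fraction. The Smad1 circle of exons 3 to 6 has 19 and 22 reads in WT cytoplasm and 0 in KO.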

How the data were processed

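Per the labels and the study's methods, reads were aligned with HISAT2 to mm10, and the values the authors deposited for mRNA are a raw count for each gene, made by featureCounts (version 2.0.0) over exons, with paired reads and no strand option per the file headers. For circRNA the deposited values are counts of backsplice reads, with find_circ named among the study's software. No value was normalized. The members, gene lists and tests were chosen with earlier results of these data known. The labels number replicates without naming separate cultures, so p-values measure the spread between these samples, which may be technical. Floors cover counting error only.

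FPKM was computed from counts, gene lengths and library totals. Genotypes were compared with the quasi-likelihood test of edgeR (version 4.0.16 in R 4.3.3), with TMM scaling and Benjamini-Hochberg adjustment over all tested features, called at an adjusted p under 0.05. Genes passed edgeR's filter on low counts and circles at least 10 reads over a fit. Each test was checked on simulated counts, where the mRNA fit recovered nearly all 2-fold changes and the circle fits few or none. A circle not called is therefore weak evidence of no change. Only 2-fold changes were simulated, in features above a minimum mean count and with a single set spread between replicates. Power for smaller changes, such as those of the Smad mRNAs, was not checked, and the spread of the real circle counts may differ. DESeq2 (version 1.42.0) and limma (version 3.58.1) on log2(FPKM + 1) were alternatives. Circle starts were moved by 1 to count from 1, and 15633 of 16171 listed circRNAs had both ends on exon edges of GENCODE M21. Exon numbers follow the transcript of each gene that holds the most of its circles. Genes named from a list were the called ones with the 3 largest changes and a mean of at least 50 counts, plus a few standard members, of which 1 is not reported here, and Tgfb1, Tgfb2, the type I receptors, Hey1, the ligands near 0 and the blood markers were named after their values were seen. The same holds for the chromosome 10 comparison. The exons of Smad5 share 1.35% of their bases with another annotated gene, and those of the other 8 share 0.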

Additional observations from a re-analysis of the deposited data

Results flagged for a closer look

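The reads of the Smad1 circle of exons 3 to 6 lay on opposite sides of WT in KO cytoplasm and KO whole cells. It had 0 and 0 reads in KO cytoplasm against 19 and 22 in WT cytoplasm, but 3 and 4 reads in KO whole cells against 1 and 2 in WT whole cells, a difference that did not pass the test (edgeR adjusted p = 0.3004). The difference between fractions was not tested. No group of mRNA libraries was large enough (4 or more) to be searched for single outlying libraries.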

How the results depend on the processing

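For mRNA, 7 of the 9 genes were called in the reported fit, and the number called stayed within 1.5 times of that under every alternative run (RLE size factors, no scaling factors, no filter, DESeq2, limma, replicate block, gene length trend removed, and each library left out, 5 to 7 genes). The length correction was chosen after seeing the data, and under it Smad2 changed sign, to 0.015, without passing the test. The pathway lists gave 45 calls in the reported fit, 39 to 49 with 1 library left out, 41 with limma, 44 with DESeq2 and 54 (26 higher, 28 lower) with the length trend removed. The share of all tested genes called moved too. It was 48.7% in the reported fit, 41.2% to 48.6% with 1 library left out and 27.6% with no filter. With limma it was 45.9%, with DESeq2 45.4% and with the length trend removed 52.0%. Nothing in the sources says that same-numbered libraries were prepared together, and deviations of same-numbered mRNA libraries from their group means correlated at 0.062, 0.036 and -0.089. With the replicate block, 7 of the 9 genes and 46 pathway genes were called, beside 48.5% of all tested genes. The block called 5 cytoplasmic circles, beside 49.8% of all cytoplasmic circRNAs. It called 3 of 15 whole-cell circles in place of 0, beside 23.1% of all whole-cell circRNAs. With no scaling factors 3 whole-cell circles were also called (2 higher, 1 lower), beside 22.5% of all. Cytoplasmic circles called numbered 1 with DESeq2, beside 5.08% of all, and 5 with no scaling factors, beside 56.1% of all. Fits with 1 circle library left out keep a single library in a group, so their calls are not given. The cause of these differences was not tested. In FPKM 7 of the 9 genes had groups that did not overlap, and in TPM 6, since those of Ski overlapped. Circles rest on few reads and 2 libraries per group, and circles of the nucleus on 4 to 15 reads per library.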

Other observations

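The mRNAs whose log2 CPM followed Smad3 most closely over the 6 libraries were Dysf (Pearson r = 0.990), Ptgfrn (0.986) and Gm14409 (0.985). They are given as a description, since all points share the same libraries. They are the highest of all tested genes, and with 6 points so high an r can arise without a link to Smad3. Within the family the correlation with Smad3 ran from -0.63 for Smad6 to 0.46 for Smad2.

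The Smad4 circle of exons 6 to 8, 288 bases, was listed in the nucleus alone, with 3 and 3 reads in WT against 2 and 2 in KO. Of the 21 circles, 9 were listed in both cytoplasm and whole cells, 5 in cytoplasm and not whole cells, and 6 in whole cells and not cytoplasm. The Smad1 circles of exons 3 to 6, 4 to 6, 5 to 6 and 2 to 6 end at the same exon 6.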
